A study of Homo sapiens with 18 samples.

Results

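The comparison set LNCaP-abl cells depleted of TRIM24 against their parental line, LNCaP, with control siRNA, and asked which of the differences between the lines the depletion removed and which it left. LNCaP is a human prostate cancer cell line that depends on androgen for growth, and LNCaP-abl is a derivative of it that grows without androgen. The 6 arrays compared were 3 of LNCaP-abl with siRNA against TRIM24 and vehicle (ethanol) and 3 of LNCaP with control siRNA and vehicle, out of 18 arrays in the series. A further group, 3 arrays of LNCaP-abl with control siRNA and vehicle, gave the level of each gene before depletion. LNCaP with TRIM24 siRNA and vehicle (3 arrays) served as an additional reference where it is named. The other 6 arrays, LNCaP with either siRNA and 10 nM dihydrotestosterone, served only to estimate the spread. Per the labels, cells of both lines were transfected for 48 h and were also given vehicle or hormone for 24 h. All groups carry the same growth text, which gives 48 h of culture in hormone-depleted serum before the experiment and names LNCaP alone for the routine medium. Any difference in routine medium between the lines cannot be told apart from the line. Each line is 1 line, so line differences are those of these cultures. The labels do not say whether the 3 arrays of a group came from separate cultures, and the p-values then measure only the spread between these arrays.

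TRIM24 is a chromatin reader with a paired PHD finger and bromodomain that acts as a coactivator of nuclear receptors, the androgen receptor among them. In prostate cancer it is known from studies of growth in the absence of androgen. Genes of the cell division cycle form 2 broad waves of expression. Replication genes are switched on before S phase through E2F sites, and mitotic genes are switched on in G2 through CHR elements (cell cycle genes homology regions) and CCAAT boxes, which bind the MuvB complexes and NF-Y. Cells that leave the cycle lower both waves. In a bulk sample, fewer cycling cells and less RNA per cycling cell cannot be told apart.

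TRIM24 itself checked the labels. It stood at 7.45, 7.55 and 7.35 (log2 expression) on the depleted LNCaP-abl arrays, at 9.45, 9.60 and 9.55 on the control LNCaP-abl arrays and at 9.70, 9.71 and 9.71 on the control LNCaP arrays. The depleted arrays did not overlap with either control group, and the difference from control LNCaP was -2.25 ± 0.05 (log2, SE; adjusted p = 3.08e-15, limma with Benjamini-Hochberg adjustment over 13607 genes), which left 21.0% of the parental signal. Of the gene's 4 probe sets, the remaining ones gave -2.18, -0.75 and 0.14, those last 2 at mean signals below 5.88. Epithelial identity was shared: 14 of the 15 luminal prostate markers on the array were at or above 5.88, the median of the whole table, in all 3 groups, and KRT8 lay between 9.68 and 9.76 in depleted LNCaP-abl, against 10.65 to 10.75 in control LNCaP. PTPRC, the pan-leukocyte marker, lay between 3.42 and 3.54 in depleted LNCaP-abl and between 3.13 and 3.52 in control LNCaP. Other markers of its list were brighter. Of 16 leukocyte and endothelial markers on the array, 5 were at or above 5.88 in each LNCaP-abl group and 6 in control LNCaP. The log2 ratio of 3′ to 5′ signal for GAPDH, a measure of RNA integrity and labelling, was 0.64 ± 0.02 in depleted LNCaP-abl, 0.56 ± 0.01 in control LNCaP-abl and 0.52 ± 0.03 in control LNCaP (SD, n = 3 each). That ratio moved with the groups, so counts that shift when it enters the model are given with both values.

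After depletion the 2 lines remained far apart. Of 13607 genes tested, 9395 (69.0%) differed between depleted LNCaP-abl and control LNCaP at an adjusted p under 0.05, 3962 of them higher (29.1%) and 5433 lower (39.9%). With the 3′ to 5′ ratios as a covariate 6986 genes did. The arrays of the groups did not overlap for 9752 genes (71.7%). Differences of at least 2-fold were called for 531 genes that were higher and 845 that were lower. Before depletion, 3962 genes had been higher (29.1%) and 4713 lower (34.6%) in control LNCaP-abl than in control LNCaP, 668 and 680 of them by at least 2-fold. Within LNCaP-abl, 2276 genes were higher (16.7%) and 3925 lower (28.8%) in depleted than in control cells, with only 12 and 159 of them past 2-fold. With the 3′ to 5′ covariate 1324 genes were higher in depleted LNCaP-abl. The 3 contrasts are built from shared arrays, and for each gene the first is the line difference plus the depletion effect. Their values are therefore set side by side and no relation between them is tested.

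Each of the 1348 genes that differed by at least 2-fold between the control lines was placed by where depletion left it. A gene counted as back at the parental level when depletion moved it against the line difference and the 95% interval of its remaining difference from control LNCaP lay within -0.5 to 0.5 (log2), a band of 1.41-fold. Only 76 genes (5.64%) met this: 71 of the 668 genes that had been higher in LNCaP-abl (10.6%) and 5 of the 680 that had been lower (0.735%). A further 7 genes, all higher in LNCaP-abl before, went past the parental level. Depletion moved 370 genes part of the way, and in 306 of them by less than 0.5 of the line difference. It moved 261 genes further away and did not move 629 at the threshold used, and 5 could not be placed. In all, 1053 of the 1348 genes remained at least 2-fold apart. With the 3′ to 5′ ratios as a covariate, 44 genes were back, 42 of them among the 76, 263 were partly back, 169 were widened, 819 were not moved and 38 could not be placed.

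**Figure D1:**
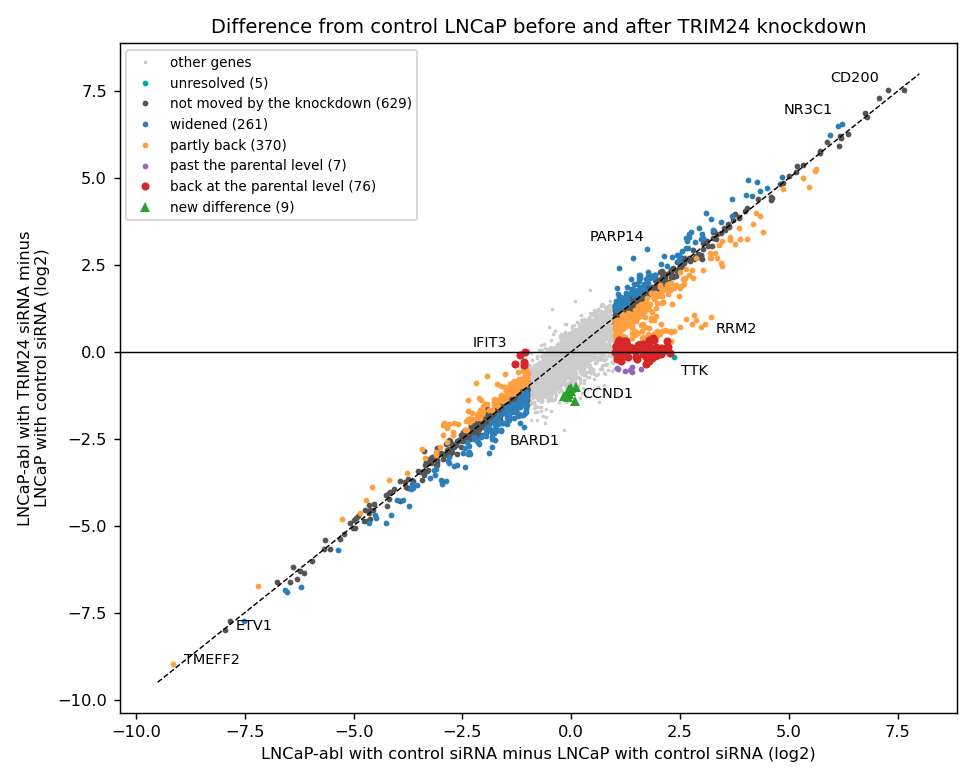
Each point is 1 of 13607 genes, with its difference between control LNCaP-abl and control LNCaP on the horizontal axis and its difference between TRIM24-depleted LNCaP-abl and control LNCaP on the vertical axis (both log2, means of 3 arrays). Points on the dashed diagonal did not move with depletion and points on the horizontal line are at the level of control LNCaP; the 76 genes back at that level lie in a short stretch of the line, at starting differences of at most 2.27. Genes with larger starting differences lie near the diagonal, or between it and the line, as KNL1 does (3.06 before and 0.81 after). Widened genes lie beyond the diagonal, as PGR does (2.94 before and 3.56 after). MCM10, which could not be placed, lies just across the line (2.36 before and -0.155 after). Both axes contain the same control LNCaP arrays.

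**Figure D2:**
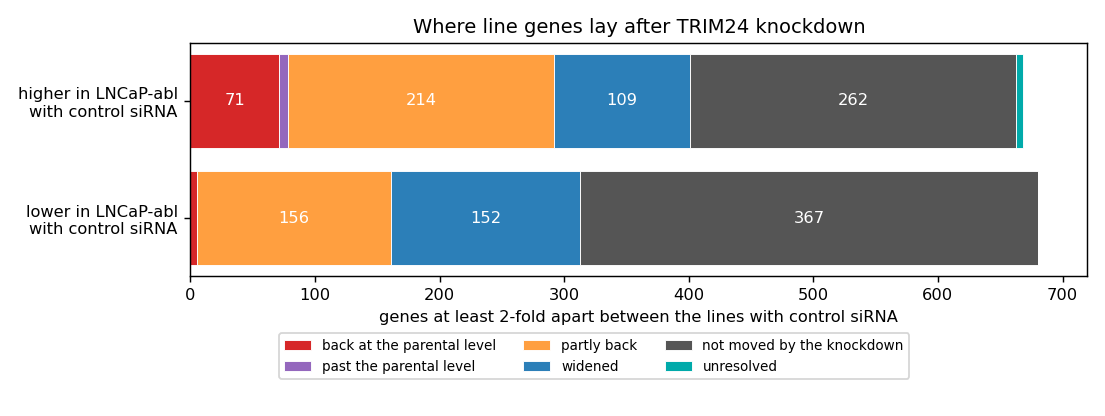
Bars give the number of genes in each class among the 668 genes higher and the 680 genes lower in control LNCaP-abl than in control LNCaP by at least 2-fold. The first segment, genes back at the parental level, holds 71 of the higher genes and 5 of the lower genes, and the largest segment in both bars holds genes that depletion did not move (262 and 367). Of those 367 lower genes, 169 averaged below 5.88 in depleted LNCaP-abl and 165 in control LNCaP-abl, where array values change little with abundance.

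Genes of cell division were the largest named group among those that came back. Of the 76, 33 (43.4%) were on 3 lists of cell cycle genes (mitosis, DNA replication, homologous recombination), which hold 0.713% of the genes tested. Those lists also held 61 of the 668 genes higher in control LNCaP-abl, of which 33 came back, beside 38 of the 607 genes on none of them. The lists were chosen with earlier results of these data known, so these shares only describe the class, and enrichment was not tested. Genes outside the lists that came back and are known for division include, picked after their values were seen, CEP55, a scaffold of the final cut between daughter cells, ESCO2, a cohesin acetyltransferase, and NCAPG, a condensin subunit. The 71 that had been higher had a median line difference of 1.46, a median change with depletion of -1.41 and a median remaining difference of 0.08 (log2). The rule that chose these genes used the same values, so these medians describe the class and are not a separate result. The remaining difference was not called for 47 of the 76 and was called for 29, and the largest in size was 0.40. MELK, a kinase of proliferating cells, had that value and was inside the band, while BRCA1, at 0.45 with an interval of 0.28 to 0.62, was outside it. The 5 genes that could not be placed were MCM10, KIF14, WDHD1, HELLS and AKAP12, with remaining differences of -0.15 to 0.36, none of them called. For 16 of the 71 the mean in control LNCaP lay below 5.88, where array values change little with abundance.

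Promoters of the genes discussed below are printed here because the 2 waves of cell cycle genes carry different short elements. Each run holds the 120 bases before the annotated start (RefSeq, GRCh38.p14), 5′ to 3′ on the strand of the gene, with TTTGAA (the CHR core), the CCAAT box and the E2F sites (TTCCCGC or TTGGCGC or TTCGCGC) in capitals on either strand. CDC20 lies at chr1:43358861-43358980 (plus strand), CCNB2 at chr15:59105026-59105145 (plus strand), MCM3 at chr6:52284743-52284862 (minus strand) and CDT1 at chr16:88803669-88803788 (plus strand). NR3C1, at chr5:143404483-143404602 (minus strand), and CD200, at chr3:112333036-112333155 (plus strand), are shown as genes that depletion did not move.
CDC20: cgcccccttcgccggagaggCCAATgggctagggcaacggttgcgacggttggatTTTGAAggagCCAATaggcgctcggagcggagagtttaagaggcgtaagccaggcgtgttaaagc
CCNB2: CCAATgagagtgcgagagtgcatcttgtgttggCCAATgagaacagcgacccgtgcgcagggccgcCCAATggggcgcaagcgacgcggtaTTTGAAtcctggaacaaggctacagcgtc
MCM3: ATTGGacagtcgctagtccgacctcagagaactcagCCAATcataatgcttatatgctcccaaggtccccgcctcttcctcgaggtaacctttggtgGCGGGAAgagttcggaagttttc
CDT1: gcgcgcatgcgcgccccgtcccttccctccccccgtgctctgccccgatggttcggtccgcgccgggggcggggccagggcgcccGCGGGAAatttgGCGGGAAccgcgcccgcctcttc
NR3C1: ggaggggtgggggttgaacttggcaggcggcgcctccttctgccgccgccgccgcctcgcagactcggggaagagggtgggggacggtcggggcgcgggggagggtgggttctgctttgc
CD200: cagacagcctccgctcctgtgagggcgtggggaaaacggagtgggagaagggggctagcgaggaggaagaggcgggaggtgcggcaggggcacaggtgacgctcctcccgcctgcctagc
The CHR core and CCAAT stand in both mitotic promoters, an E2F form in both replication promoters, and none of the searched letters in the stretches of NR3C1 and CD200. Other stretches of the same length lacked them: CENPF, CCNA2, KIF20A, PTTG1, TOP2A and CCNB1 held no TTTGAA, and FEN1 and TK1 no E2F form. The 6 genes whose stretches are printed were chosen after their values and promoters were seen.

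The same letters were counted, on both strands, in the 300 bases from 250 before to 50 after the start. Promoters were at hand for 53 of the 71 genes that came back from above. TTTGAA stood in 45.3% of them, CCAAT in 71.7%, both in 37.7%, and an E2F form in 30.2%. Among 10959 genes tested that had a promoter, the shares were 9.77% for TTTGAA, 36.6% for CCAAT, 4.12% for both and 17.0% for E2F, and among all 27305 promoters 15.4%, 35.7%, 6.08% and 11.2%. In the 172 promoters of genes higher in LNCaP-abl that came partly back, the shares were 19.2%, 49.4%, 10.5% and 23.3%. In the 205 promoters of genes higher in LNCaP-abl that depletion did not move, the shares were 15.6%, 32.2%, 6.34% and 14.6%. AGAACA, a half-site of the androgen receptor motif, stood in 13.2% of the returned genes' promoters and 9.10% of those of all genes tested. TTTGAA stood in 70.3% of the 37 promoters of the mitosis list and 2.70% of the 37 of the replication list, and E2F forms in 24.3% and 75.7%. A match says that the letters are present, and no match says only that they are not in this window.

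Mitotic genes were the largest returned group. Of 43 measured genes of G2 and mitosis, 43 had been higher in control LNCaP-abl than in control LNCaP and 41 were lower in depleted than in control LNCaP-abl. In depleted LNCaP-abl 15 remained higher and 8 were lower than in control LNCaP, with a median difference of 0.10, against 1.89 before depletion. Among all genes tested, 29.1% had been higher, 28.8% fell with depletion, and 29.1% were higher and 39.9% lower after it. By class, 22 were back, 4 past the parental level, 12 partly back and 1 could not be placed.

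TTK, the kinase that starts the spindle checkpoint, stood at 6.05, 5.70 and 5.95 in depleted LNCaP-abl, 7.88, 8.01 and 8.05 in control LNCaP-abl and 5.78, 5.89 and 5.59 in control LNCaP. CCNA2, the cyclin of S phase and early mitosis, stood at 6.01, 6.05 and 6.15 in depleted LNCaP-abl, 8.34, 7.93 and 8.26 in control LNCaP-abl and 6.10, 6.15 and 6.12 in control LNCaP. Depleted LNCaP-abl and control LNCaP overlapped for both genes, and control LNCaP-abl stood about 2 log2 units above them. Their remaining differences were 0.15 ± 0.09 for TTK (adjusted p = 0.150, 95% interval -0.04 to 0.34) and -0.05 ± 0.11 for CCNA2 (adjusted p = 0.697, limma). The second probe set of CCNA2 gave 0.37. CENPE, a kinesin of the kinetochore, came close but stayed higher, at 6.34, 6.30 and 6.14 in depleted LNCaP-abl, against 6.05, 5.79 and 6.01 in control LNCaP. Its arrays did not overlap, and the difference of 0.31 ± 0.09 was called (adjusted p = 0.00613). PBK, a mitotic kinase (0.07), CEP55 (0.08) and ASPM, a spindle pole protein (0.12), had remaining log2 differences that were not called, after line differences of 2.18, 2.17 and 2.16. CEP55 averaged below 5.88 in both depleted LNCaP-abl and control LNCaP, and TTK and ASPM did so in control LNCaP. ZNF367, a zinc finger gene with the largest line difference among those that came back (2.27), had a remaining difference of -0.04 ± 0.13 from control LNCaP, both groups lying below 5.88.

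CDC20, the activator of the anaphase-promoting complex whose promoter is printed above, lay at 7.44, 7.27 and 7.26 in depleted LNCaP-abl, 9.43, 9.38 and 9.35 in control LNCaP-abl and 7.61, 7.60 and 7.76 in control LNCaP. CCNB2, a mitotic cyclin, lay at 7.83, 7.80 and 7.80 in depleted LNCaP-abl, against 8.05, 8.0 and 8.01 in control LNCaP. Both ended slightly below the parent, by 0.34 ± 0.06 for CDC20 (adjusted p = 0.000177) and 0.21 ± 0.04 for CCNB2 (adjusted p = 0.000443), with no overlap of arrays but inside the band. The 7 genes past the parental level ended lower than the parent by more: NDC80 and KIF4A, which serve the kinetochore and the chromosome arms, DEPDC1, the centromere gene CENPW, the methylation maintenance factor UHRF1, and CDK1 with its partner CCNB1. CCNB1 stood at 8.66, 8.56 and 8.44 in depleted LNCaP-abl, 10.35, 10.33 and 10.30 in control LNCaP-abl and 9.13, 9.08 and 9.05 in control LNCaP. Its remaining difference was -0.54 ± 0.05 (adjusted p = 8.27e-08), with all depleted arrays below all parental ones, and CDK1 had -0.47 ± 0.05 (adjusted p = 1.85e-07). The 4 probe sets of CDK1 gave differences of -0.47 to 0.10, and the 3 of CCNB2 gave -0.21 to 0.13. For both genes the direction therefore depended on the probe set. DEPDC1 was the lowest of the 7, at -0.57 ± 0.07. With the 3′ to 5′ covariate the difference of NDC80, -0.48 in the model without it, was -0.35 and no longer called.

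The mitotic genes that came back only in part included those with the largest line differences of the list. KNL1, SPC25 and ANLN, of the kinetochore and the cleavage furrow, had line differences of 3.06, 2.98 and 2.87 and remaining differences of 0.81, 0.70 and 0.91. HMMR, a spindle-associated protein, stood at 8.21, 8.25 and 8.35 in depleted LNCaP-abl, 10.00, 9.89 and 10.05 in control LNCaP-abl and 7.41, 7.40 and 7.20 in control LNCaP. The 3 groups did not overlap, and depleted LNCaP-abl was 1.91-fold above control LNCaP (0.94 ± 0.07, adjusted p = 7.31e-09). PRC1, which bundles the central spindle, was 1.52-fold above (0.60 ± 0.05, adjusted p = 3.70e-08). FOXM1, the transcription factor of the G2 wave, differed by 0.53 between the control lines, under the 2-fold limit, and ended below the parent at -0.65 ± 0.09 (adjusted p = 5.74e-06).

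**Figure D3:**
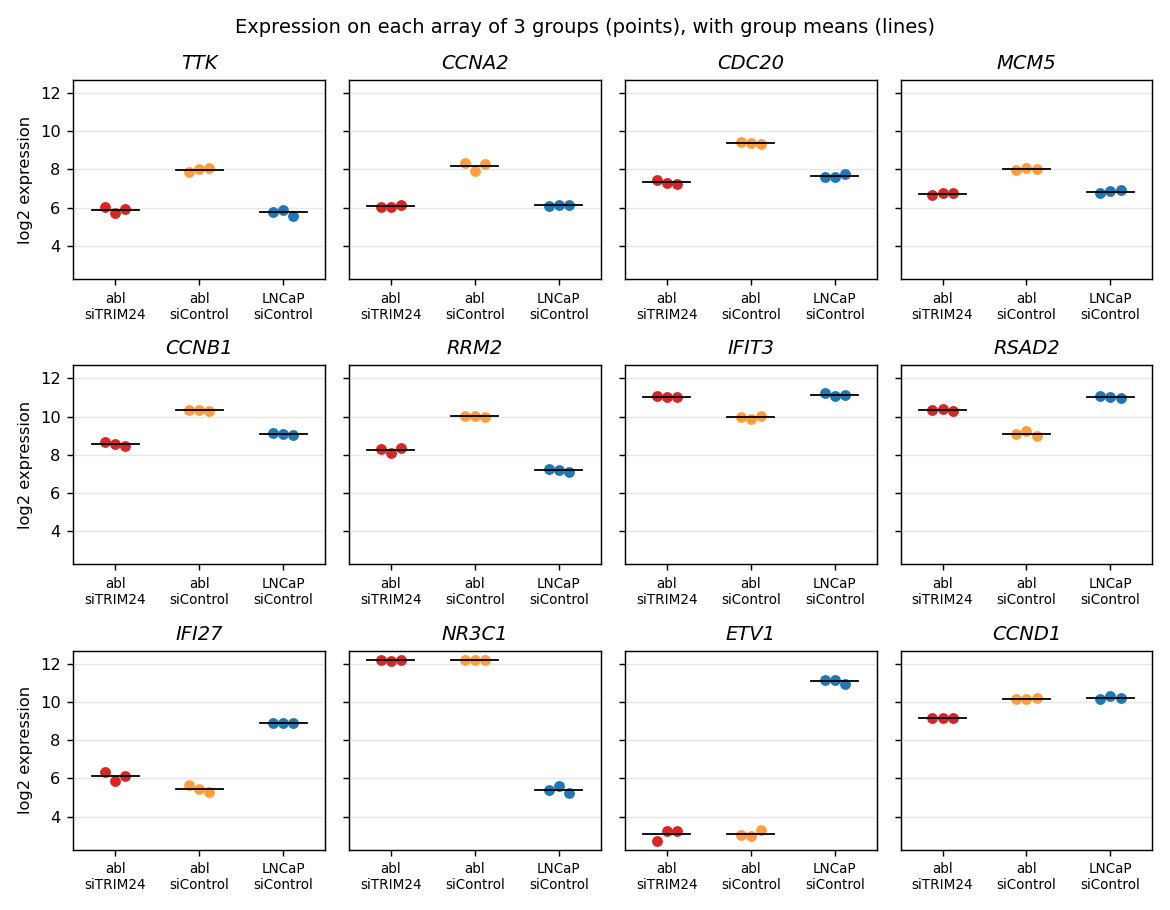
Log2 expression of 12 genes on each of the 3 arrays of TRIM24-depleted LNCaP-abl, control LNCaP-abl and control LNCaP, with a line at each group mean. TTK, CCNA2, CDC20 and MCM5 lie near the control LNCaP level after depletion, CCNB1 lies below it, RRM2, RSAD2 and IFI27 lie between the control groups, and NR3C1 and ETV1 do not leave the LNCaP-abl level.

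Replication genes followed with smaller changes and a more mixed end point. Of 40 measured genes of G1/S and DNA replication, 35 had been higher and 2 lower in control LNCaP-abl than in control LNCaP, and 37 were lower in depleted than in control LNCaP-abl, none higher. After depletion 15 were higher and 13 lower than in control LNCaP, with a median difference of 0.01, against 0.79 before. Among the 15 genes that had differed by 2-fold, 6 were back (MCM3, MCM5, CDT1, GINS2, FEN1 and TK1), 1 was past the parental level, 7 were partly back and 1 could not be placed.

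MCM5, a subunit of the replicative helicase, stood at 6.66, 6.76 and 6.78 in depleted LNCaP-abl, 7.99, 8.07 and 8.04 in control LNCaP-abl and 6.78, 6.85 and 6.91 in control LNCaP, so that the depleted and parental arrays touched (-0.11 ± 0.06, adjusted p = 0.0944). MCM3, of the same helicase, ended at 0.18 ± 0.05 above the parent (adjusted p = 0.00253) and the licensing factor CDT1 at 0.33 ± 0.08 above it (adjusted p = 0.00103), both without overlap of arrays. RRM2, the regulatory subunit of ribonucleotide reductase, did not come back: it stood at 8.28, 8.11 and 8.34 in depleted LNCaP-abl, 10.01, 10.05 and 9.98 in control LNCaP-abl and 7.25, 7.20 and 7.12 in control LNCaP. The arrays of the 3 groups were apart, and depleted LNCaP-abl remained 2.08-fold above control LNCaP (1.06 ± 0.06, adjusted p = 1.89e-10). E2F8, a repressor of the E2F family, remained 1.66-fold above the parent (0.73 ± 0.14, adjusted p = 0.00027), both groups lying below 5.88. Other members were lower than in the parent after depletion although the lines had differed little before. RFC3, of the clamp loader, had a line difference of 0.08 and a remaining difference of -0.89 ± 0.07 (adjusted p = 5.34e-09), and MSH6, of mismatch repair, had -0.23 and -0.67 ± 0.04 (adjusted p = 1.70e-10). SLBP, the histone mRNA binding protein, kept most of its line difference, with 0.66 ± 0.03 left of 0.78.

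Homologous recombination genes split in the same way. Of 14 measured, 12 had been higher and 2 lower in control LNCaP-abl, 13 were lower in depleted than in control LNCaP-abl, and after depletion 3 were higher and 5 lower than in control LNCaP (median 0.01). BRIP1, a helicase, BLM, another helicase, EXO1, an exonuclease, and FANCI, of the Fanconi pathway, were among those back at the parental level. BRIP1 and BLM averaged below 5.88 in both depleted LNCaP-abl and control LNCaP, where array values change little with abundance. Of the 14 genes, 5 averaged below 5.88 in control LNCaP. BRCA1 stayed 1.36-fold above the parent (0.45 ± 0.08, adjusted p = 0.000125). Its binding partner BARD1 went the other way: it lay at 9.34, 9.26 and 9.18 in depleted LNCaP-abl, 9.78, 9.83 and 9.85 in control LNCaP-abl and 11.61, 11.60 and 11.56 in control LNCaP. Depletion widened the gap, to 19.9% of the parental signal (-2.33 ± 0.04, adjusted p = 4.00e-17). RAD54B, a recombination motor, ended 1.75-fold below the parent (-0.81 ± 0.08, adjusted p = 1.07e-07).

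The level of control LNCaP was in most cases not the level of LNCaP treated with the same TRIM24 siRNA. Against TRIM24-depleted LNCaP, 57 of the 71 genes back from above were higher in depleted LNCaP-abl, with a median difference of 0.42, where 29.6% of all genes tested were higher and the median was -0.03. On the mitosis list 38 of 43 were higher and 1 lower (median 0.52), and on the replication list 18 of 40 were higher and 15 lower (median 0.11). ASPM and CENPF were higher than in depleted LNCaP by 1.13 and 1.12 and PBK by 0.95 (log2), while TOP2A was higher by 0.17 and MCM5 was lower by 0.20. When depleted LNCaP was taken as the parental level, 47 genes were back, 30 of them among the 76.

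Among genes that had been lower in LNCaP-abl, 5 came back, 2 of them interferon-stimulated. IFIT3, an antiviral protein of the IFIT family, stood at 11.06, 11.03 and 11.03 in depleted LNCaP-abl, 10.00, 9.87 and 10.02 in control LNCaP-abl and 11.21, 11.08 and 11.11 in control LNCaP. All depleted arrays were below the parental ones by a narrow margin, and the difference of -0.10 ± 0.04 was not called (adjusted p = 0.0539), although it was called under 9 of the alternative settings. IFIT2 of the same family ended at -0.28 ± 0.05 (adjusted p = 0.000211). ACP3, the androgen-induced prostatic acid phosphatase, stood at 12.92, 12.89 and 12.91 in depleted LNCaP-abl, 12.01, 11.93 and 11.90 in control LNCaP-abl and 13.28, 13.23 and 13.21 in control LNCaP (-0.34 ± 0.03, adjusted p = 2.43e-07). The remaining pair were S100P, a calcium-binding protein, at 0.01 ± 0.06 (adjusted p = 0.903), and RHOQ, a small GTPase, at -0.37 ± 0.04 (adjusted p = 8.97e-07). The probe sets of RHOQ ranged from -0.82 to -0.09. The same siRNA raised all 5 in LNCaP too, by 0.49 (ACP3) to 1.05 (IFIT2). Against TRIM24-depleted LNCaP they were lower in depleted LNCaP-abl by 0.83 (ACP3) to 1.33 (IFIT2), and with that parent 1 gene was back from below.

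Most interferon-stimulated genes moved toward the parent and stayed below it. Of 37 measured, 31 had been lower and 3 higher in control LNCaP-abl than in control LNCaP, 22 were higher and 3 lower in depleted than in control LNCaP-abl, and after depletion 29 were still lower and 3 higher than in control LNCaP. The median difference was -0.91 after and -1.21 before depletion, beside medians near 0 over all genes. Among all genes tested, 34.6% had been lower, 16.7% rose with depletion and 39.9% were lower after it. Against TRIM24-depleted LNCaP, 34 of the 37 were lower in depleted LNCaP-abl and 2 higher, with a median of -1.49. Of the 23 that had differed by 2-fold, 15 were partly back, 5 not moved, 2 back and 1 widened.

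RSAD2, which encodes the antiviral enzyme viperin, moved most of the 37: it stood at 10.34, 10.39 and 10.26 in depleted LNCaP-abl, 9.09, 9.24 and 8.99 in control LNCaP-abl and 11.07, 11.04 and 10.99 in control LNCaP. The 3 groups did not overlap, and -0.70 ± 0.06 was left of a line difference of -1.93 (adjusted p = 9.91e-09). OASL, a relative of the oligoadenylate synthetases just under the 2-fold limit, stood at 10.84, 10.71 and 10.76 in depleted LNCaP-abl, 9.72, 9.70 and 9.71 in control LNCaP-abl and 10.69, 10.67 and 10.77 in control LNCaP, so that depleted and parental arrays overlapped (0.06 ± 0.04, adjusted p = 0.218). IFI27, IFI44, IFI6 and IFITM1 covered less of the way. IFI27 stood at 6.31, 5.88 and 6.11 in depleted LNCaP-abl, 5.67, 5.45 and 5.28 in control LNCaP-abl and 8.89, 8.90 and 8.92 in control LNCaP, which left it 6.99-fold below the parent (-2.81 ± 0.10, adjusted p = 2.16e-13). IFITM1, which blocks viral entry, remained 4.09-fold below (-2.03 ± 0.05) and the ubiquitin-like ISG15 2.84-fold below (-1.51 ± 0.04). SAMD9, an antiviral factor, did not move and remained 28.5-fold below (-4.83 ± 0.14, adjusted p = 2.17e-14), with both LNCaP-abl groups under 5.88. PARP14, an ADP-ribosyltransferase, had been higher in LNCaP-abl by 2.32 and after depletion was higher by 2.74 ± 0.08 (adjusted p = 4.18e-14). HERC5, a ligase for ISG15, and IFIT5 were the others higher both before (0.52 and 0.72) and after depletion (0.54 and 0.40). The probe sets of PARP14 gave differences between 0.05 and 2.74. RSAD2, OASL, PARP14, HERC5 and IFIT5 were named after their values were seen.

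**Figure D4:**
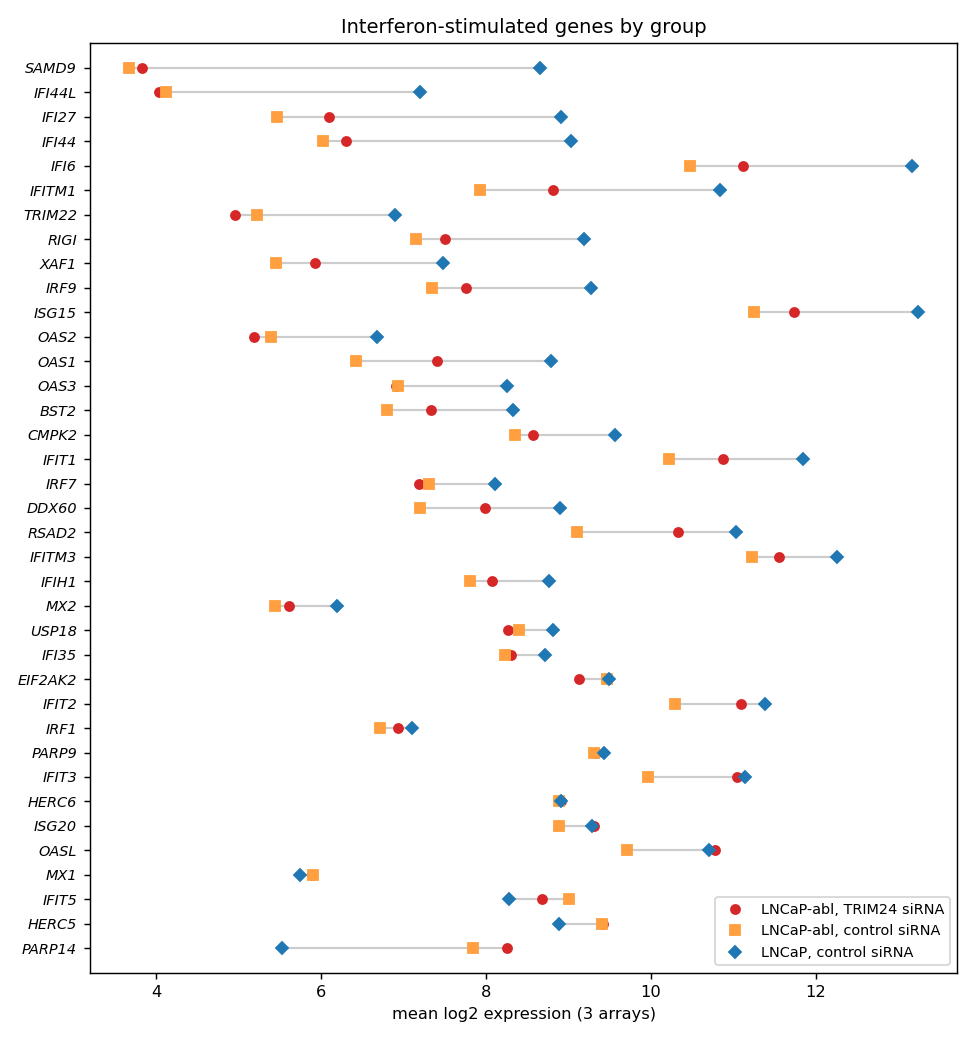
Mean log2 expression (3 arrays) of 37 interferon-stimulated genes in TRIM24-depleted LNCaP-abl, control LNCaP-abl and control LNCaP, ordered by the difference between depleted LNCaP-abl and control LNCaP. The 15 genes that were partly back lie between the control groups; IFIT3 and OASL lie at the LNCaP level and PARP14 lies above it.

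The largest line differences stayed. The 10 largest rises and 10 largest falls that remained after depletion ranged from 74.3-fold to 505-fold. In 19 of these 20 the lower of the 2 groups averaged under 5.88, so the folds are of array signal and are best read as lower bounds. CD200, an immune checkpoint ligand of the immunoglobulin family whose promoter stretch is printed above, stood at 11.96, 11.95 and 11.92 in depleted LNCaP-abl, 12.16, 12.04 and 12.04 in control LNCaP-abl and 4.41, 4.45 and 4.41 in control LNCaP. NR3C1, the glucocorticoid receptor, stood at 12.18, 12.12 and 12.18 in depleted LNCaP-abl, 12.20, 12.21 and 12.19 in control LNCaP-abl and 5.41, 5.61 and 5.21 in control LNCaP. For both, the LNCaP-abl groups lay far above every parental array, and the remaining differences were 7.52 ± 0.06 for CD200 (adjusted p = 1.60e-20) and 6.75 ± 0.09 for NR3C1 (adjusted p = 3.89e-18). The 5 probe sets of NR3C1 gave differences of 3.10 to 7.25. FLRT3, an adhesion protein, and TMC5, a transmembrane channel-like gene, remained higher by 7.53 and 7.30. The olfactory receptor gene OR51E2 (6.50) and CTNNA3, an alpha-catenin (6.55), were widened slightly. All these genes except OR51E2 lay under 5.88 in control LNCaP, as NR3C1 and CD200 did.

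In the other direction TMEFF2, a membrane protein of prostate and brain, had the largest remaining difference of all genes tested: it stood at 4.09, 4.16 and 4.06 in depleted LNCaP-abl, 4.11, 3.92 and 3.79 in control LNCaP-abl and 13.11, 13.10 and 13.04 in control LNCaP. Its change with depletion, 0.17 (adjusted p = 0.026), passed the threshold and placed it among genes partly back, yet it remained 505-fold below the parent (-8.98 ± 0.06, adjusted p = 9.59e-22). ETV1, the ETS factor that is rearranged and overexpressed in LNCaP, stood at 2.75, 3.22 and 3.25 in depleted LNCaP-abl, 3.06, 2.97 and 3.30 in control LNCaP-abl and 11.12, 11.14 and 10.95 in control LNCaP. It did not move, at -8.0 ± 0.11 from the parent (adjusted p = 2.98e-18). The 5 probe sets of ETV1 gave differences of -8.0 to -0.61. Those at -0.984 and -1.015 averaged 6.49 and 6.54 in depleted LNCaP-abl. PEG3, an imprinted zinc finger gene (-7.73), the desmosomal cadherin DSC3 (-6.61) and LDHB, the heart-type lactate dehydrogenase subunit (-6.54), were also unmoved, and BCHE, butyrylcholinesterase (-6.89), was widened. On the probe sets used, the LNCaP-abl groups had means below 5.88 for all of these genes, apart from LDHB. Of 12 measured fibroblast and mesenchymal markers, 4 were lower and 4 higher than in the parent, beside 39.9% lower and 29.1% higher over all genes tested. VIM remained lower by 4.79 ± 0.10, FN1 by 3.35 ± 0.04 and TWIST1 by 4.79 ± 0.15. VIM and FN1 were widened, though another probe set of VIM gave -0.17 and another of FN1 -0.23. TWIST1 was unmoved, with means below 5.88 in both LNCaP-abl groups. COL3A1, a fibrillar collagen, was higher by 0.97 and partly back, and ACTA2, smooth muscle actin, was higher by 0.64.

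Of 34 measured genes of guidance and adhesion, 16 were higher and 10 lower in depleted LNCaP-abl than in control LNCaP (median 0.12), beside 11 higher and 12 lower before depletion. The shares over all genes tested were 29.1% higher and 39.9% lower after depletion, and 29.1% and 34.6% before. Of the 12 that had differed by 2-fold, none was back, 2 were partly back, 4 widened and 6 not moved, where 46.7% of all 1348 genes were not moved. EFNB2, an ephrin, stood at 6.18, 5.82 and 5.96 in depleted LNCaP-abl, 6.10, 5.96 and 6.11 in control LNCaP-abl and 12.32, 12.30 and 12.23 in control LNCaP. The LNCaP-abl groups overlapped and lay 78.7-fold below the parent after depletion (-6.30 ± 0.07, adjusted p = 3.27e-19). The ephrin receptors EPHA7 and EPHA3 remained lower by 6.62 ± 0.10 and 5.41 ± 0.10. The secreted semaphorin SEMA3C remained lower by 7.75 ± 0.06, with a second probe set at -3.63. SEMA3C, EPHA7 and EPHA3 averaged under 5.88 in both LNCaP-abl groups, so small changes there are not read. UNC5B, a netrin receptor named after its values were seen, was one of the members that depletion took away from the parent, with 0.64 before and 1.18 ± 0.06 after (adjusted p = 4.58e-11).

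Of 29 measured androgen-induced genes, 7 were higher and 16 lower in depleted LNCaP-abl than in control LNCaP (median -0.25), beside 9 higher and 13 lower before depletion (median -0.07). Of the 10 that had differed by 2-fold, 2 were back (ACP3 and the centromere gene CENPN), 1 partly back, 2 widened and 5 not moved, beside 5.64% back and 46.7% not moved among all 1348. KLK3, which encodes prostate-specific antigen, stood at 5.40, 5.80 and 5.92 in depleted LNCaP-abl, 5.99, 5.35 and 5.78 in control LNCaP-abl and 8.55, 8.38 and 8.57 in control LNCaP. Most arrays of both LNCaP-abl groups read below 5.88, where array values change little with abundance, so small changes there are not read. The LNCaP-abl groups overlapped, and the difference from the parent was -2.80 before and -2.80 ± 0.13 after depletion (adjusted p = 1.51e-11). PMEPA1, an inhibitor of TGF-beta signalling (-4.55), and ABCC4, a drug and prostanoid exporter (-2.39), were not moved either. ELL2, an elongation factor, went further down, at 7.66, 7.64 and 7.56 in depleted LNCaP-abl, 8.39, 8.65 and 8.56 in control LNCaP-abl and 10.44, 10.47 and 10.14 in control LNCaP (-2.73 ± 0.08, adjusted p = 4.61e-14).

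Other androgen-induced genes differed little between the lines until depletion. FKBP5, a co-chaperone of steroid receptors, stood at 8.81, 8.88 and 8.68 in depleted LNCaP-abl, 9.65, 9.73 and 9.71 in control LNCaP-abl and 9.71, 9.72 and 9.74 in control LNCaP. Only the depleted arrays stood apart (-0.93 ± 0.04, adjusted p = 8.94e-12), against a line difference of -0.03. SLC45A3, a prostate membrane transporter, had a line difference of -0.65 and a remaining difference of -1.84 ± 0.06 (adjusted p = 4.80e-14). Of 15 androgen-repressed genes 6 were higher and 7 lower after depletion (median 0.02). UGT2B17, which inactivates androgens, stayed 5.14-fold above the parent (2.36 ± 0.07). Among 19 receptors, cofactors and pioneer factors 6 were higher and 10 lower (median -0.10). Over all genes tested 29.1% were higher and 39.9% lower. PGR, the progesterone receptor, was widened, to 3.56 ± 0.10 above the parent (adjusted p = 1.76e-14) after a line difference of 2.94. KDM1A, a histone demethylase and cofactor, was lower by 0.80 ± 0.05. Luminal markers were lower for 9 and higher for 4 of 15 (median -0.26 after and before), with KRT8 at 51.1% and the secreted AGR2 at 10.1% of the parental signal.

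**Figure D5:**
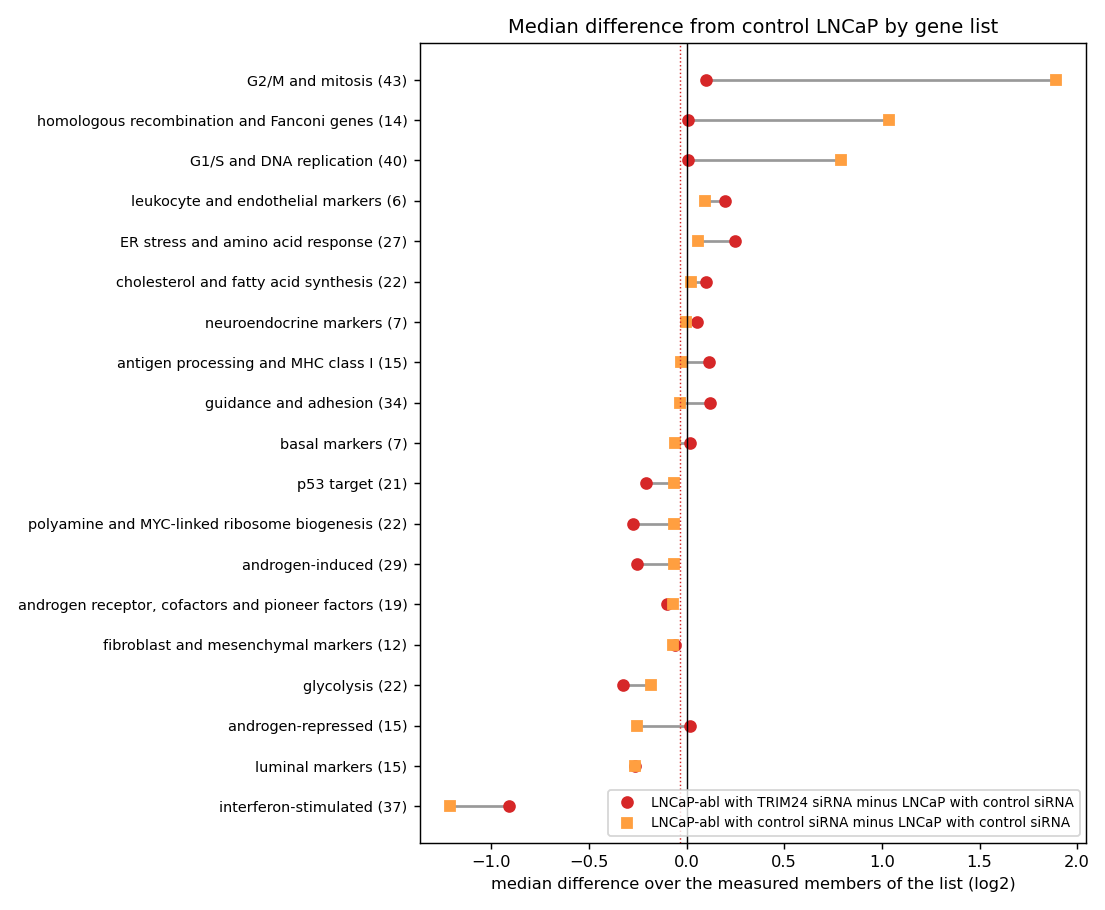
Median log2 difference from control LNCaP over the measured members of 19 gene lists (number of members in brackets), for TRIM24-depleted LNCaP-abl (circles) and control LNCaP-abl (squares). The 3 cell cycle lists move to near 0 after depletion and the interferon list moves part of the way. The glycolysis, ribosome biogenesis and androgen-induced lists move away from 0. So do others, among them ER stress, p53 targets, and leukocyte and endothelial markers. The guidance and antigen processing lists cross 0 and end further from it. The dotted line is the median over all genes tested, -0.03, and both sets of medians contain the same control LNCaP arrays.

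Glycolysis genes fell more often than not with depletion. Of 22 measured, 11 had been lower and 3 higher in control LNCaP-abl, 15 were lower and none higher in depleted than in control LNCaP-abl, and 16 were lower and 2 higher than in control LNCaP after depletion (median -0.33, against -0.18 before). Over all genes tested 28.8% fell with depletion and 39.9% were lower than in the parent after it. HK2, the inducible hexokinase, stood at 6.38, 6.20 and 6.22 in depleted LNCaP-abl, 6.70, 6.74 and 6.56 in control LNCaP-abl and 8.83, 8.84 and 8.84 in control LNCaP. Each group stood apart, and HK2 ended at 16.8% of the parental signal (-2.58 ± 0.05, adjusted p = 2.77e-16). PFKP, the platelet-type phosphofructokinase (-2.03 ± 0.04), and PFKFB3, which makes its activator (-1.31 ± 0.05), were also widened, though the second probe set of PFKP gave 0.07. LDHA had a line difference of 0.01, which was not called, and ended 1.27-fold below the parent (-0.35 ± 0.03, adjusted p = 1.14e-07).

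Genes of polyamine synthesis and of ribosome biogenesis linked to MYC showed many small falls. Of 22 measured, 10 had been lower and 7 higher in control LNCaP-abl, 16 were lower and 2 higher in depleted than in control LNCaP-abl, and 16 were lower and 2 higher than in control LNCaP after depletion (median -0.28, against -0.06 before). Among all genes tested 28.8% fell with depletion and 39.9% were lower than in the parent after it. ODC1, the first enzyme of polyamine synthesis, stood at 12.36, 12.35 and 12.33 in depleted LNCaP-abl, 12.92, 12.90 and 12.88 in control LNCaP-abl and 12.70, 12.71 and 12.76 in control LNCaP. It thus crossed the parental level, to -0.38 ± 0.03 (adjusted p = 3.52e-09). FBL, the methyltransferase of ribosomal RNA (-0.48 ± 0.03), and RRP12, a ribosome export factor (-0.70 ± 0.05), were lower in both LNCaP-abl groups and lowest after depletion. MYC itself moved the other way, with -0.69 before and -0.45 ± 0.04 after (adjusted p = 5.94e-08).

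Depletion also made differences where the control lines had none. By the rule that the line difference was not called and under 0.25 and that the depleted cells were at least 2-fold from the parent, 9 genes qualified, and all 9 were lower: ZBTB37, HTR7P1, CEP120, PDHX, ZDHHC5, EID2, CCND1, ALDH3B2 and HEATR3. The same siRNA lowered all 9 in LNCaP too, by 0.59 (CEP120) to 1.64 (ZBTB37) on the log2 scale. With TRIM24-depleted LNCaP as the parent, 2 lower genes met the rule. PDHX, a component of the pyruvate dehydrogenase complex, stood at 10.46, 10.29 and 10.38 in depleted LNCaP-abl, 11.50, 11.53 and 11.62 in control LNCaP-abl and 11.59, 11.61 and 11.57 in control LNCaP (-1.22 ± 0.04, adjusted p = 3.22e-13). CCND1, the G1 cyclin D1, stood at 9.14, 9.16 and 9.17 in depleted LNCaP-abl, 10.15, 10.17 and 10.19 in control LNCaP-abl and 10.16, 10.30 and 10.20 in control LNCaP. The control lines overlapped and the depleted arrays lay 2.09-fold below them (-1.06 ± 0.05). ZBTB37, a zinc finger gene, had the largest such difference (-1.41 ± 0.09), with -0.03 in another of its 3 probe sets. MPZL3, an adhesion gene, missed the rule narrowly: its line difference of 0.09 was called (adjusted p = 0.049), and it ended 1.48 above the parent. SMARCA4, the ATPase of the BAF remodelling complex, missed it in the same way, with -0.12 before and -1.44 after. Both, like CCND1, were named after their values were seen.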

How the data were processed

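Total RNA of each sample had been labelled with biotin and hybridised to a 1-colour Affymetrix array with 54675 probe sets, 62 of them controls. The deposited values are log2 expression per probe set, made by the authors with RMA, per the submitters' processing notes; its version is not given in the sources used here. Probe sets were named from the platform annotation, with symbols updated through RefSeq: 41097 had 1 symbol, 1801 several and 11777 none, and only the first were named. A gene was read from its brightest probe set (19775 genes), and genes whose third-highest value reached the table median of 5.88 were tested (13607). A limma model (limma 3.58.1, R 4.3.3) with a mean for each of 6 groups of 3 arrays gave 12 residual degrees of freedom and a median residual SD of 0.07. Tests were two-sided, with Benjamini-Hochberg adjustment over all genes tested, and called at an adjusted p under 0.05. The values as deposited were used without further scaling. Array medians lay between 5.83 and 5.93, arrays of a group correlated at 0.996 to 0.998 over probe sets, and no columns were identical. The number of arrays limits the precision.

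The classes need a called line difference of at least 1 (log2) and follow the sign and call of the depletion effect and of the remaining difference. The 19 lists (521 genes, 399 of them measured) and all other members were chosen with earlier results of these data known. Genes were named by a rule: TRIM24, the 10 largest remaining rises and falls, 6 genes of each class and direction by line difference, and in each list up to 4 genes by adjusted p and 2 by line difference. Other genes in the text were picked after their values were seen. On simulated data with 100 genes shifted by 0.5 and 100 by 0.25 in the comparison of depleted LNCaP-abl with control LNCaP, 93 and 52 were recovered among 148 calls, 3 of them false, over 13607 genes. All other genes were simulated without a difference and with independent normal noise. In the data 69.0% of genes were called, so these rates may not carry over to it. Alternatives changed the low-value filter, the probe set, the scaling, the arrays and variance model in the fit, the covariates, the thresholds and the parental level, or left out 1 array.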

Additional observations from a re-analysis of the deposited data

How the results depend on the processing

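The 143 named genes were followed with each of 9 arrays left out and under part of the 16 alternative settings. Not included were the settings that changed only the line threshold or the interval, and depleted LNCaP as the parent. Of 2974 remaining differences, 2939 kept their direction and side of the threshold. Of the rest, 12 in 5 genes lost the call, 21 gained one and 2 reversed. The reversals were in VWF, whose difference of 0.39 was -0.025 with the mean of its probe sets and -0.44 with the most variable one. Counts of calls, classes and list members other than those given here stayed within 1.5 times. Class counts are given for genes higher and then lower in control LNCaP-abl. With the 3′ to 5′ ratios as a covariate, 1324 genes were higher in depleted than in control LNCaP-abl, 41 and 3 genes were back, 91 lower genes were widened, 36 and 2 could not be placed, and 1 higher new difference appeared. At an adjusted p under 0.01 the counts were 1480 genes higher with depletion, 10 and 1 not placed and 1 new higher. With line differences from 0.5 up, 273 and 122 genes were back, 27 and 1 past, 345 and 280 partly back, 245 and 493 widened, 589 and 925 not moved, and 8 and 3 not placed. With line differences from 2 up, 8 and 0 were back, 0 higher genes were past, 76 and 49 partly back, 38 and 45 widened, 92 and 144 not moved, and 1 higher gene was not placed. With an interval within 0.25, 19 and 2 were back, 14 higher genes past and 33 not placed. With depleted LNCaP as the parent, 46 and 1 were back, 0 higher genes past, 1 lower gene not placed and 2 new lower. The most variable probe set gave 3 lower genes back, 3 higher genes not placed, and 1 new higher and 16 new lower differences, and the mean of probe sets gave 3 lower genes back, 3 and 1 not placed and 1 new higher. Without the filter, with centred arrays, with an intensity trend, or with only the 3 groups, 1 new higher difference appeared, and the last setting left 1 lower gene not placed. The stricter filter left 1 higher gene not placed and array weights 2. Quantile normalization gave 1 replication gene higher with depletion and 5 interferon genes higher than in the parent. With single arrays left out, new differences ranged from 0 to 1 higher and 7 to 14 lower (14 without control LNCaP-abl replicate 1), genes not placed from 3 to 9 higher (9 without control LNCaP replicate 2) and 0 to 1 lower, and interferon genes lower with depletion from 2 to 5 (5 without depleted LNCaP-abl replicate 3). The causes of these shifts were not tested.

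Arrays of different groups share only a replicate number: deviations of same-numbered arrays from their group means correlated at -0.07 to 0.15, and 1 of 9 arrays matched best with its own number. With that number as a replicate block, 70 and 5 genes were back, 3 higher genes were not placed and 1 new higher difference appeared, and the calls of the 2 contrasts with control LNCaP and of depletion stayed within 1.5 times. The same 3 arrays of control LNCaP enter every difference from the parent, 3 arrays a group limit the precision, and 744 of the 13607 genes tested averaged below the filter value of 5.88 there.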

Other observations

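Of 15 measured genes of antigen processing and MHC class I, 9 were higher and 6 lower in depleted LNCaP-abl than in control LNCaP (median 0.11), beside 4 higher and 7 lower before depletion. Among all genes tested 29.1% were higher and 39.9% lower after depletion, and 29.1% and 34.6% before. ERAP1, the peptide-trimming aminopeptidase, stood at 9.81, 9.78 and 9.84 in depleted LNCaP-abl, 8.87, 9.01 and 9.05 in control LNCaP-abl and 8.82, 8.78 and 8.63 in control LNCaP, a remaining difference of 1.06 ± 0.06 (adjusted p = 1.67e-10, limma) beside a line difference of 0.23. Another of its 5 probe sets gave -0.41. PSMB9, a subunit of the immunoproteasome, remained at 49.0% of the parental signal and NLRC5, the activator of MHC class I genes, at 48.0%. Of 27 genes of ER stress and the amino acid response, 17 were higher and 8 lower than in the parent (median 0.25), beside 12 and 5 before depletion. SLC7A11, the cystine importer, was back at 0.26 ± 0.07 after a line difference of 1.25, although another of its 3 probe sets gave 0.95, while SLC7A5, the transporter of large amino acids, stayed 25.7-fold above the parent.

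Cholesterol and fatty acid genes were higher for 10 and lower for 7 of 22 (median 0.10). For this and the following lists, the shares over all genes tested were 29.1% higher and 39.9% lower. INSIG1, a brake on sterol synthesis, remained 2.24-fold above the parent, and SQLE, squalene epoxidase, went below it (-0.49 ± 0.04) after a line difference of 0.27. Of 21 p53 targets, 13 were lower and 7 higher (median -0.21). The death receptor gene FAS was 6.61-fold above the parent and widened, and the stress cytokine GDF15 was 8.29-fold below it and partly back. Of 7 neuroendocrine markers 2 were higher and 1 lower, of 7 basal markers 3 and 3, and of 6 leukocyte and endothelial markers 4 and none, the last with array means of 5.27 in depleted LNCaP-abl and 5.14 to 5.19 in control LNCaP over 16 genes. DST, dystonin, was the basal marker with the largest remaining difference, 1.88 ± 0.04, though another of its 10 probe sets gave -0.10.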
